A study of Gallus gallus with 2 samples.

Results

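LIM homeodomain transcription factors carry a DNA-binding homeodomain and a pair of LIM domains, zinc-finger modules that bind the cofactor LDB1. Partners of LDB1 regulate them further: LMO proteins compete for LDB1, SSBP proteins stabilise it, and the ubiquitin ligase RLIM marks it for degradation. In the retina the family is known as a set of fate markers. LHX1 marks the axon-bearing horizontal cells, ISL1 the other horizontal cells as well as ganglion cells, ISL2 a subset of cones, and LHX4 cones and bipolar cells. LHX2 is known from progenitors, LHX9, in mouse, from amacrine cells, LHX3 from motor neurons, and LHX5 is a close relative of LHX1.

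LHX1, LHX3, LHX4, LHX5, LHX9, ISL1 and ISL2 were described here, 7 genes chosen by name and all listed among the 23967 genes counted. The data are UMI counts (molecules tagged by unique molecular identifiers) from single cells of chick retinas electroporated ex vivo at embryonic day 5 and cultured for 48 h. The sorted cells were positive for OTX2ECR2::GFP, in which an enhancer of the OTX2 gene drives green fluorescent protein, so neither library samples the whole retina. All retinas also received the plasmid p18, in which the CAG promoter drives Cas9. In the CTRL library p18 had the guide scaffold without a targeting guide, and in the OTX2CRISPR library it carried a guide against OTX2, a homeobox gene needed for photoreceptor fate. Editing was mosaic, so OTX2CRISPR cells need not be mutant, the retinas of each condition were pooled, and the opposite eye of the same embryos served as CTRL. There was 1 library per condition. No test between conditions was therefore possible, and the comparisons describe these libraries with exact 95% intervals that cover counting error only.

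After the cell filters CTRL held 5073 cells and 14773938 UMIs, with a median of 2779 UMIs per cell, and OTX2CRISPR 4928 cells and 13206843 UMIs, with a median of 2566. The libraries shared 38 barcodes. OTX2 was at 1745 CPM (UMIs per 1000000 UMIs) in CTRL and 761 CPM in OTX2CRISPR, but a count of transcripts does not show which alleles were cut. Markers of pigment epithelium summed to 22.7 CPM in CTRL and 20.7 CPM in OTX2CRISPR over 6 genes, with TYR at 0 in OTX2CRISPR. Those of red blood cells summed to 0.27 and 0.23 CPM over 6 genes, with HBA1 and HBBA at 0 in both libraries. Blood and microglia markers reached 3.52 and 1.97 CPM over 3 genes, with CSF1R at 0 in OTX2CRISPR. The part of such cells in the results was not tested.

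Cells were clustered without the LIM homeobox genes or the markers, and the clusters were named from markers that include no LIM homeobox gene. The HC1-like class has the AP-2 gene TFAP2A with ONECUT1, ONECUT2 and ONECUT3, and the HC2-like class has TFAP2B, TFAP2C and PRDM13. TFAP2B and PRDM13 were not confined to the HC2-like class, at 1911 and 518 CPM in CTRL HC1-like cells with LHX1. The HC1-like class held 88 CTRL and 520 OTX2CRISPR cells and the HC2-like class 439 and 208, and both together are called horizontal-like. The name is only a label, since most CTRL HC2-like cells were low in the horizontal cell genes PROX1 and ONECUT1, as given below. RGC-like cells (POU4F3, EBF3) numbered 151 and 523. Cone-like cells, with the retinol carrier RBP4, comprised the postmitotic PR1-like (905 and 37) and PR2-like (675 and 39) classes and a dividing class (822 and 34). Restricted RPC-like cells, dividing progenitors with OLIG2 and NEUROG2, numbered 1493 and 1200. Multipotent RPC-like cells numbered 344 and 319, and AC/HC/RGC-like cells, with PTF1A and DLX2, 126 and 239. The New-like class, named for BRINP2 and CRABP1, held 1809 OTX2CRISPR cells and 30 CTRL cells. The CTRL members had its markers at far lower levels, with BRINP2 at 10.3 CPM (1 UMI) and CRABP1 at 124 CPM (12 UMIs) against 265 and 1865 CPM in OTX2CRISPR. A class held mostly by 1 library may be that library rather than a cell type, which applies to the New-like and cone-like classes. LHX1 was the leading gene of the HC1-like cells by fold, ISL1 was among the leading 10 genes of RGC-like cells and ISL2 among those of dividing cones, and levels by class are given as a description.

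**Figure D1:**
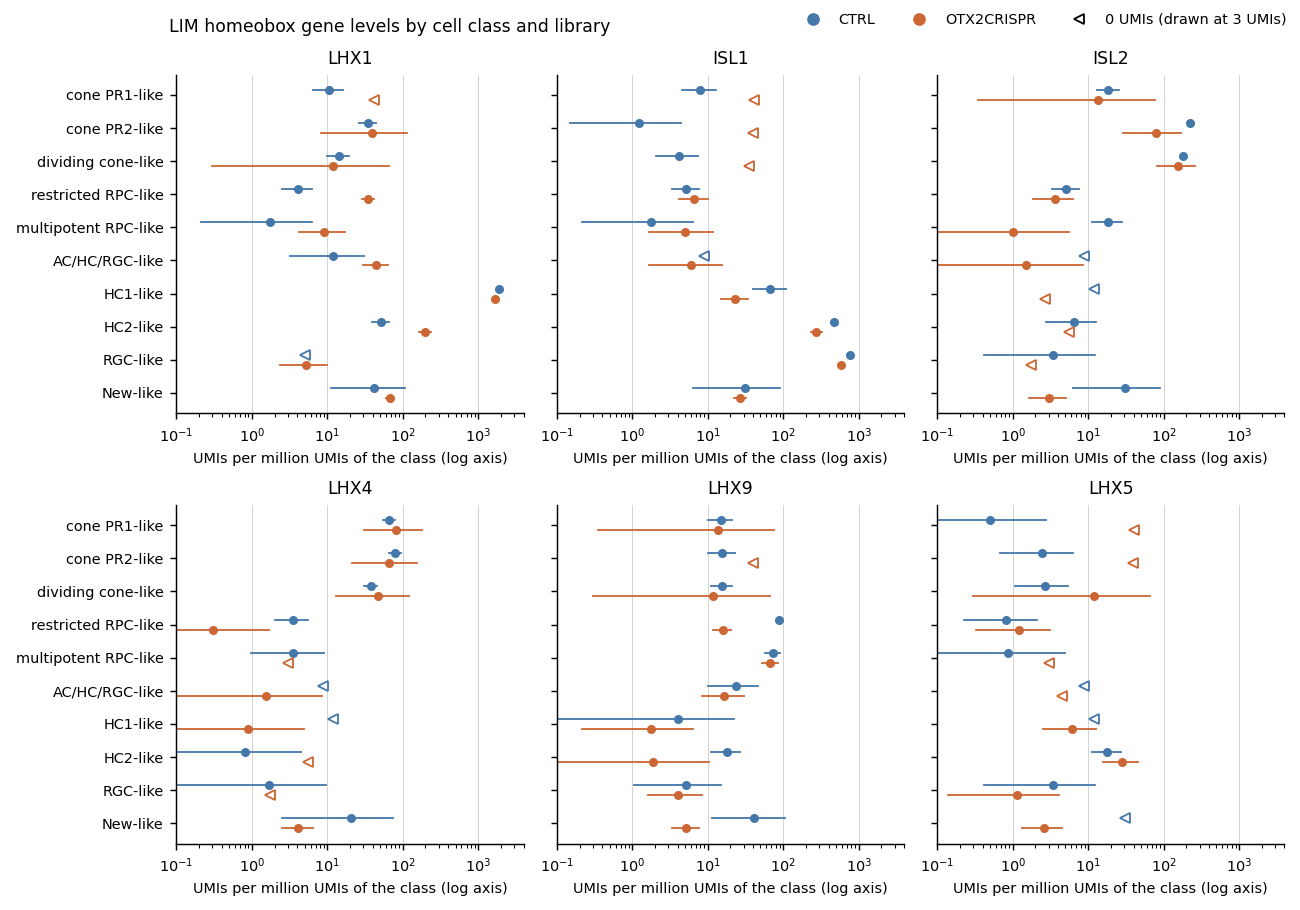
Level of 6 LIM homeobox genes in 10 cell classes, in CPM of the class on a log axis, in CTRL (blue) and OTX2CRISPR (orange) cells. Points are levels, bars are 95% Poisson intervals, and open triangles mark 0 UMIs, drawn at the level of 3 UMIs, and bars that meet the left edge reach below it. LHX1 was at 1904.5 and 1681 CPM in HC1-like cells, ISL1 at 764 and 581 CPM in RGC-like cells, and ISL2 at 228 CPM in CTRL PR2-like cones.

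Between whole libraries LHX1 was higher in OTX2CRISPR, LHX4, LHX9 and ISL2 were lower, and ISL1 and LHX5 stayed within 2-fold. LHX1 rested on 684 UMIs in CTRL and 2484 in OTX2CRISPR, or 46.3 CPM (42.9 to 49.9) and 188 CPM (181 to 196), a 4.06-fold higher level. ISL1 was at 75.2 CPM (1111 UMIs) and 101 CPM (1334 UMIs), a log2 ratio of 0.43 (0.31 to 0.54). LHX9 went from 43.8 CPM (647 UMIs) to 12.5 CPM (165 UMIs), 3.51-fold lower, with a log2 ratio of -1.81 (-2.07 to -1.56). The family thus had no common shift between the libraries.

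The cone genes had the widest gaps between the libraries. LHX4 was at 26.1 CPM (385 UMIs) in CTRL and 2.80 CPM (37 UMIs) in OTX2CRISPR, 9.30-fold lower, with a log2 ratio of -3.22 (-3.75 to -2.73). ISL2 had 937 and 48 UMIs, a 17.45-fold lower level in OTX2CRISPR. LHX5 had 41 UMIs in each library, 2.78 and 3.10 CPM, and LHX3 had 0 UMIs in CTRL, which allows 3 UMIs, and 2 in OTX2CRISPR. Of the 6 members with at least 20 UMIs over the libraries, 1 was higher and 3 were lower past 2-fold, where 8.71% of 12937 genes were higher and 5.67% lower. Their median log2 ratio was -0.82, beside 0.05 over all genes. At the level of whole libraries, fewer cells of a type and less RNA per cell cannot be told apart.

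The share of cells with a UMI gave the same directions after each cell was thinned to 1000 UMIs. LHX1 was found in 2.59% (2.17 to 3.07) of CTRL and 11.8% (10.9 to 12.7) of OTX2CRISPR cells. ISL1 was found in 3.11% (2.65 to 3.63) and 4.80% (4.21 to 5.44), LHX9 in 3.61% and 1.05%, ISL2 in 5.54% and 0.37%, and LHX4 in 2.93% and 0.43%. For LHX1, LHX4, LHX9, ISL1 and ISL2 the intervals of the libraries did not overlap.

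**Figure D2:**
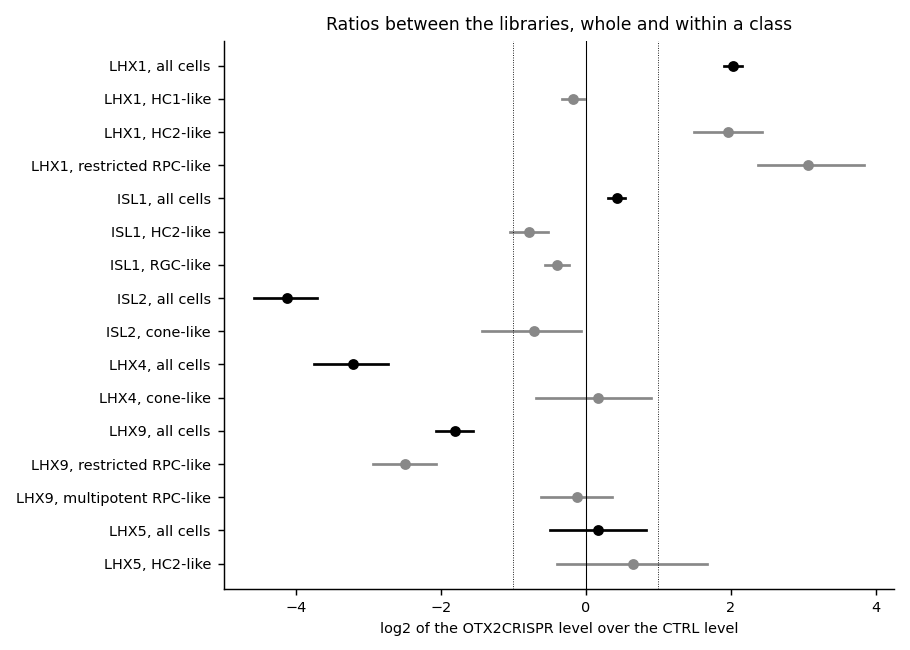
Log2 ratio of the OTX2CRISPR level over the CTRL level for 6 LIM homeobox genes, over all cells (black) and within classes (grey), with 95% conditional binomial intervals. Dotted lines mark a 2-fold difference. LHX1 stood at 2.02 over all cells and -0.18 within HC1-like cells, and LHX9 at -2.49 within restricted RPC-like and -0.13 within multipotent RPC-like cells.

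LHX1 was largely a gene of the HC1-like cells in both libraries. There it was at 1904.5 CPM (1737 to 2083) in CTRL, from 477 UMIs in 88 cells, and at 1681 CPM (1606 to 1758) in OTX2CRISPR, from 1898 UMIs in 520 cells. The log2 ratio was -0.18 (-0.33 to -0.03), against 2.02 over all cells. After thinning, 73.9% (63.4 to 82.7) of CTRL and 72.6% (68.5 to 76.4) of OTX2CRISPR HC1-like cells had an LHX1 UMI. RGC-like cells, which should lack the gene, had it in 0 of 151 CTRL cells (a count of 0 allows up to 1.99%) and in 0.78% of 514 OTX2CRISPR cells. Median depth was 2668.5 and 2063.5 UMIs in HC1-like cells and 3835 and 3242 in RGC-like cells. The higher level over all OTX2CRISPR cells was thus not present within HC1-like cells, which were 88 of the CTRL and 520 of the OTX2CRISPR cells.

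Without thinning, the HC1-like cells of the libraries differed in their LHX1 UMIs per cell. In CTRL 51.1% (40.2 to 61.9) of the cells held 5 or more LHX1 UMIs and 6.82% held none, with a maximum of 20. In OTX2CRISPR 31.9% (27.9 to 36.1) held 5 or more and 14.6% none, with a maximum of 15. The depth of these cells was lower in OTX2CRISPR, and at equal depth the gap in cells with none was not seen. After thinning to 1000 UMIs, 65 of 88 CTRL and 371 of 511 OTX2CRISPR cells had LHX1. With thinning to 2000 UMIs, 63 of 76 and 233 of 278 had it. The part of depth in the share with 5 or more UMIs was not tested. Levels in CTRL were 1989 CPM in G1, 1532 in S and 2219 in G2/M, and in OTX2CRISPR 1825, 1455 and 1466 CPM, so LHX1 was present in HC1-like cells of every phase call. The 76 OTX2CRISPR HC1-like cells with no LHX1 UMI had TFAP2A at 2138 CPM (1911 to 2384), against 3516 CPM (3400 to 3636) in the 444 with LHX1.

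Outside the HC1-like cells LHX1 was higher in OTX2CRISPR in several classes. In HC2-like cells it went from 51.0 CPM (63 UMIs) to 198 CPM (106 UMIs), a log2 ratio of 1.95 (1.49 to 2.43). In restricted RPC-like cells it went from 4.12 CPM (20 UMIs) to 34.5 CPM (114 UMIs), a log2 ratio of 3.07 (2.37 to 3.83). The CTRL value lies at the level of RGC-like cells and cannot be told from background, but the OTX2CRISPR value was above the 5.20 CPM (2.38 to 9.86) of RGC-like cells in the same library. In AC/HC/RGC-like cells the ratio was 1.90 (0.39 to 3.87) from 4 and 29 UMIs. All these ratios were past 2-fold, and the shares of genes past it in each class are given next.

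Within classes few members had enough UMIs to be counted, and those past 2-fold are set beside the shares of all genes. In HC1-like cells 0 of 2 were higher and 1 lower, where 7.38% of genes were higher and 2.73% lower, and the lower gene was ISL1. In HC2-like cells 1 of 4 was higher and 1 lower, LHX1 and LHX9, where 4.32% and 3.42% of genes were. In restricted RPC-like cells 1 of 4 was higher and 1 lower, again LHX1 and LHX9, beside 5.41% and 3.79% of genes.

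The remaining classes had fewer measured members. In multipotent RPC-like cells 0 of 2 were higher and 1 lower, beside 1.47% and 2.66% of genes. That gene was ISL2, with 21 UMIs in CTRL (18.5 CPM, 11.4 to 28.2) and 1 in OTX2CRISPR. In AC/HC/RGC-like cells the 1 measured member, LHX1, was higher, beside 13.6% of genes higher and 3.35% lower. In RGC-like cells the 1 measured member, ISL1, stayed within 2-fold, beside 5.67% and 2.44%. In cone-like cells 0 of 5 were higher, beside 5.93% of genes higher and 13.9% lower. ISL1 had 29 UMIs there in CTRL (4.63 CPM) and 0 in OTX2CRISPR, but a count of 0 allows 12.8 CPM in the far smaller OTX2CRISPR class, so no direction can be given, and the other 4 stayed within 2-fold.

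The restricted RPC-like class joined a cluster rich in OTX2, with 1285 CTRL and 521 OTX2CRISPR cells, and a cluster with the neuropeptide gene NPY, with 208 and 679. LHX1 went from 3.76 to 27.7 CPM in the OTX2-rich cluster and from 6.56 to 39.2 CPM in the NPY cluster, so the gap was present in each. OTX2CRISPR restricted RPC-like cells with 0, 1 to 4 and 5 or more OTX2 UMIs had LHX1 at 28.7, 36.6 and 41.9 CPM. These levels rested on 41, 37 and 36 UMIs, and their intervals overlapped. An OTX2 count does not show which alleles were cut, and the part of OTX2 in the LHX1 level was not tested. The 91 OTX2CRISPR cells of this class with an LHX1 UMI had ONECUT1 at 238 CPM (182 to 306) against 83.4 CPM in the other 1109. ONECUT1, a cut-homeobox factor of cone and horizontal progenitors, was accompanied by TFAP2A at 62.5 CPM against 15.1 and by PTF1A, a bHLH factor of horizontal and amacrine fate, at 85.9 against 30.9. Of the 91 cells 68.1% (57.5 to 77.5) were called in S or G2/M, against 79.8% (77.3 to 82.1) of the others, and after thinning 66.7% (50.5 to 80.4) against 79.9% (77.4 to 82.2).

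LHX1 in the New-like cells of OTX2CRISPR was at 68.1 CPM (60.8 to 76.0), from 315 UMIs. It was found in 234 of 1809 cells, of which 173 held 1 UMI, 60 held 2 to 4 and 1 held 5 or more. The level was above the 5.20 CPM of RGC-like cells and below the 1681 CPM of HC1-like cells. New-like cells with LHX1 had OTX2 at 1400 CPM (1309 to 1495) against 1174 CPM (1141 to 1208) in those without. They had PTF1A at 176 against 51.6 CPM, and less BRINP2, at 157 against 283 CPM, and POU4F2, a ganglion cell factor, at 4.75 against 63.1 CPM. The 30 CTRL cells held 4 LHX1 UMIs and were not compared.

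Cones held a low level of LHX1. It was at 34.5 CPM (26.0 to 44.7) in CTRL PR2-like cones, 14.1 CPM in dividing cones and 10.4 CPM in PR1-like cones. The PR2-like interval lay above those of the other CTRL cones and of CTRL RGC-like cells, where 0 UMIs were found. In CTRL the 92 cone-like cells with LHX1 had OPN1LW, the red opsin, at 225 CPM (171 to 292) against 79.3 CPM (72.3 to 86.7) in the other 2310. OPN1LW is a naming marker of the PR2-like class, where LHX1 was also highest among CTRL cones. The part of class mix in the OPN1LW difference was not tested. OTX2CRISPR cones had only 4 LHX1 UMIs in 110 cells. Cone-like cells numbered 2402 in CTRL and 110 in OTX2CRISPR. They made up 30.8% (23.0 to 39.5) of the 130 thinned CTRL cells with LHX1 and 0.70% (0.19 to 1.79) of the 570 in OTX2CRISPR. Horizontal-like cells made up 60.8% and 70.9%.

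ISL1 was highest in RGC-like cells, at 764 CPM (695 to 838) in CTRL from 449 UMIs and 581 CPM (545 to 618) in OTX2CRISPR from 1006 UMIs. The log2 ratio was -0.40 (-0.56 to -0.23), within 2-fold. In cells gated on a POU4F3 UMI in place of the clusters ISL1 was at 721 and 364 CPM, a log2 ratio of -0.99. This gate can take in cells of other classes. Among AC/HC/RGC-like cells without LHX1, 15.6% in CTRL and 28.1% in OTX2CRISPR had a POU4F3 UMI. In OTX2CRISPR New-like cells without LHX1 the share was 8.95%. The part of such cells in the gated values was not tested. After thinning, 41.7% (33.8 to 50.02) and 29.2% (25.3 to 33.3) of the RGC-like cells had ISL1. In cone-like cells, which should lack it, the share was 0.29% in CTRL and 0 of 109 in OTX2CRISPR, which allows up to 2.75%, at median depths of 2462.5 and 1955.5 UMIs. RGC-like cells were 40.4% of ISL1 cells in CTRL and 64.7% in OTX2CRISPR, and horizontal-like cells 53.8% and 15.1%, so the main carrier of ISL1 changed from horizontal-like to RGC-like cells while the total level differed by 1.34-fold.

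The RGC-like cells without an ISL1 UMI differed from those with one in other genes, in both libraries. DLX2, a homeobox factor of ganglion and amacrine cells, was at 205 CPM (165 to 253) in CTRL cells with ISL1 and 811 CPM (679 to 961) in those without. In OTX2CRISPR it was at 291 CPM (257 to 329) and 839 CPM (777 to 903). POU4F1, a ganglion cell POU factor, showed the opposite, with 99.2 CPM (71.5 to 134) against 0 UMIs in CTRL and 84.7 CPM against 12.2 CPM in OTX2CRISPR. POU4F3 had overlapping intervals in CTRL, 408 CPM (350 to 474) with ISL1 and 512 CPM (408 to 634) without. Median depth was higher in the cells with ISL1, 3980.5 against 3329 UMIs in CTRL and 3610 against 3006.5 in OTX2CRISPR, and its part in these differences was not tested.

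In HC2-like cells ISL1 went from 474 CPM (437 to 514; 586 UMIs) to 276 CPM (233 to 324; 148 UMIs), a log2 ratio of -0.78 (-1.05 to -0.52), within 2-fold. The gene was concentrated in few cells. In CTRL 335 of 439 HC2-like cells had none, and the 55 with 5 or more UMIs held 79.9% of all, up to 17 in a cell. In OTX2CRISPR 169 of 208 had none and 13 had 5 or more. ISL1 differed by cell cycle phase in CTRL, with 283 CPM (251 to 319) in G1 and 1272 CPM (1134 to 1423) in S or G2/M. In OTX2CRISPR the values were 241 CPM (197 to 292) and 431 CPM (313 to 579). The many CTRL cells with neither LHX1 nor ISL1, described next, were mostly called in G1, so the CTRL phase values mix groups of cells.

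HC2-like cells sorted by their LIM factors had different profiles. The 83 CTRL cells with ISL1 and no LHX1 had ONECUT1 at 1104 CPM (978 to 1242), ONECUT2 at 1476 CPM and PROX1, a homeobox factor of horizontal cells, at 728 CPM (626 to 842). The 316 with neither had these at 237, 257 and 50.8 CPM. They had more NRXN3, a synaptic adhesion gene, at 1054 against 264 CPM, PRDM13, an amacrine factor, at 859 against 332 CPM, and PTF1A, at 326 against 16.0 CPM. Of the cells with ISL1 alone 45.8% (34.8 to 57.1) were called in S or G2/M, and of those with neither 2.53% (1.10 to 4.93). After thinning 48.1% (36.9 to 59.5) of the ISL1 cells were, against 12.0% (8.81 to 15.9) of the cells without ISL1. The class named HC2-like thus held in CTRL a small ISL1 group with horizontal cell genes and a larger group with neither LIM factor, low in PROX1 and high in NRXN3 and PRDM13.

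**Figure D3:**
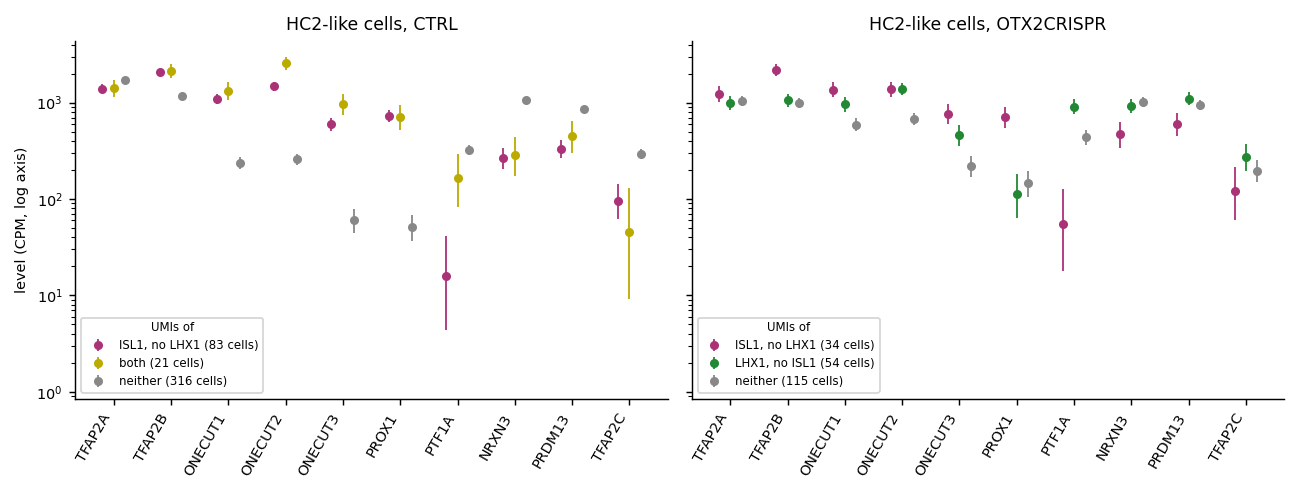
Level of 10 genes in HC2-like cells grouped by the presence of an LHX1 or ISL1 UMI, in CPM on a log axis, with CTRL at left and OTX2CRISPR at right. Bars are 95% Poisson intervals, and groups under 20 cells are left out. PROX1 was at 728 CPM in CTRL cells with ISL1 alone and 50.8 CPM in cells with neither.

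In OTX2CRISPR the 34 HC2-like cells with ISL1 alone had a like profile, with ONECUT1 at 1365 CPM (1135 to 1627) and PROX1 at 715 CPM (552 to 912), and 41.2% were called in S or G2/M. Here 54 cells had LHX1 alone. They had ONECUT1 at 957 CPM (804 to 1132) but PROX1 at 112 CPM (63.9 to 182), PTF1A at 908 CPM (759 to 1078) and PRDM13 at 1104 CPM, and 9.26% were called in S or G2/M. Between these HC2-like groups ONECUT1 was thus high in both, PROX1 higher with ISL1 alone and PTF1A higher with LHX1 alone. PTF1A was not confined to cells with LHX1, since the 115 OTX2CRISPR HC2-like cells with neither gene held 436 CPM (363 to 519). Their PROX1 level was 145 CPM (105 to 196). Low PROX1 was not shared by HC1-like cells with LHX1, which held 673 CPM of it (CTRL) and 548 CPM (OTX2CRISPR). In CTRL only 19 HC2-like cells had LHX1 alone, and their profile was not computed.

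Exclusivity of LHX1 and ISL1 was examined cell by cell. Over all thinned CTRL cells 130 had LHX1, 156 had ISL1 and 6 had both, so ISL1 was in 4.62% (1.71 to 9.78) of cells with LHX1 and 3.07% (2.60 to 3.59) of cells without. In OTX2CRISPR 570 had LHX1, 232 had ISL1 and 8 had both, 1.40% (0.61 to 2.75) against 5.25% (4.60 to 5.96). Thus ISL1 was less frequent in LHX1 cells in OTX2CRISPR, with intervals that did not overlap, and in CTRL the intervals overlapped. Without thinning the CTRL shares were 11.2% (7.48 to 15.8) and 4.33% (3.77 to 4.94), so ISL1 was more frequent in LHX1 cells, with intervals that did not overlap. In OTX2CRISPR they were 2.66% (1.69 to 3.96) and 8.69% (7.84 to 9.60), the order found with thinning. These shares depend on the other classes in the library, most of which had neither gene.

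Among thinned horizontal-like cells ISL1 was less frequent in cells with LHX1 in each library. In CTRL 79 of 518 cells had LHX1, 84 had ISL1 and 5 had both, so ISL1 was in 6.33% (2.09 to 14.2) of LHX1 cells and 18.0% (14.5 to 21.9) of the others. In OTX2CRISPR 404 of 716 had LHX1, 35 had ISL1 and 6 had both, 1.49% (0.55 to 3.20) against 9.29% (6.31 to 13.1). The CTRL gap depended on thinning, since without it the shares were 21.3% (14.4 to 29.6) and 21.0% (17.1 to 25.3), and with at least 2 UMIs required 7.23% (2.70 to 15.1) and 19.4% (15.8 to 23.4). In OTX2CRISPR it stood without thinning, at 3.18% (1.83 to 5.11) against 16.4% (11.9 to 21.9). The pool joins HC1-like cells, high in LHX1, with HC2-like cells, higher in ISL1. The part of this mix was not tested. Within thinned HC1-like cells the shares were 1.54% (0.04 to 8.28) and 8.70% (1.07 to 28.0) in CTRL. In OTX2CRISPR HC1-like cells they were 1.08% (0.29 to 2.74) and 1.43% (0.17 to 5.07). The intervals overlapped in each library, and also within HC2-like cells, given below.

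The share of each gene among these cells differed between the libraries. LHX1 was in 15.3% (12.3 to 18.6) of CTRL and 56.4% (52.7 to 60.1) of OTX2CRISPR horizontal-like cells, and ISL1 in 16.2% (13.2 to 19.7) and 4.89% (3.43 to 6.73). Most CTRL horizontal-like cells were HC2-like and most OTX2CRISPR ones HC1-like. Without thinning, 316 of the 439 CTRL HC2-like cells had neither gene, the group low in PROX1, and such cells count in these shares. Over both classes LHX1 was at 363 and 1203 CPM, a log2 ratio of 1.73 (1.59 to 1.87) where 6.8% of genes were higher, and ISL1 at 406 and 104 CPM, -1.96 (-2.21 to -1.71), where 2.03% were lower.

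ISL1 was lowest in the cells with most LHX1. CTRL cells with 0, 1, 2 to 4 and 5 or more LHX1 UMIs had ISL1 at 70.6, 226, 158 and 14.0 CPM, the last from 2 UMIs in 47 cells. In OTX2CRISPR the values were 116, 35.4, 17.8 and 7.46 CPM, the last from 3 UMIs in 169 cells. In contrast to the cells with 5 or more, CTRL cells with 1 to 4 LHX1 UMIs had more ISL1 than cells with none. The reverse was similar, with LHX1 in OTX2CRISPR at 204, 67.3, 42.4 and 4.91 CPM in cells with 0, 1, 2 to 4 and 5 or more ISL1 UMIs. The bins hold different classes. Of the cells with 5 or more LHX1 UMIs, 45 of 47 in CTRL and 166 of 169 in OTX2CRISPR were HC1-like. Of the 108 OTX2CRISPR cells with 5 or more ISL1 UMIs, 88 were RGC-like. The part of class make-up in these values was not tested.

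**Figure D4:**
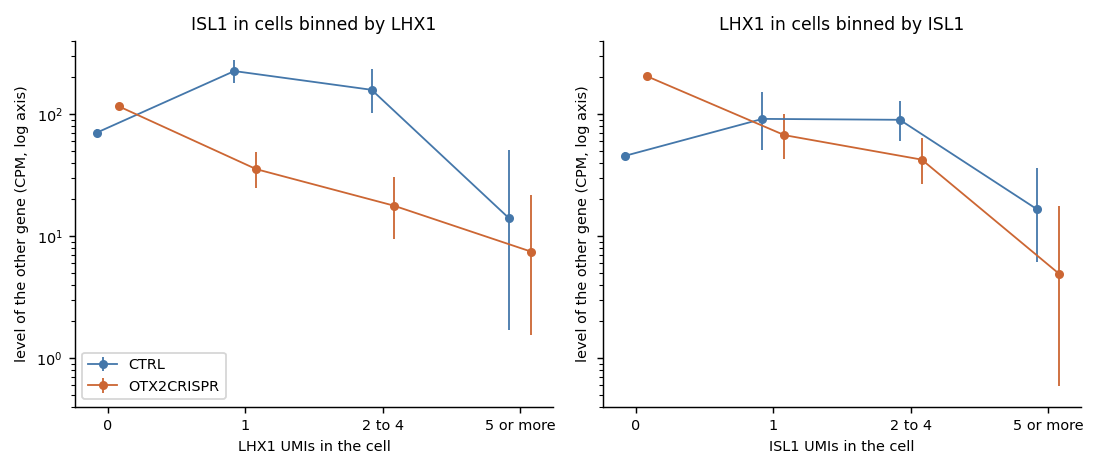
Left, ISL1 level (CPM, log axis) in cells binned by their LHX1 UMIs, and right, LHX1 level in cells binned by their ISL1 UMIs, in CTRL (blue) and OTX2CRISPR (orange), with 95% Poisson intervals. ISL1 was at 14.0 CPM in the 47 CTRL cells and 7.46 CPM in the 169 OTX2CRISPR cells with 5 or more LHX1 UMIs, against 70.6 and 116 CPM in cells with none. The bins differ in class make-up, and most cells with 5 or more LHX1 UMIs were HC1-like.

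The CTRL cells with both genes lay mostly in the HC2-like class. Without thinning 27 CTRL cells had both, 21 of them HC2-like, where 52.5% (36.1 to 68.5) of 40 LHX1 cells had ISL1 against 20.8% (16.9 to 25.1) of the others. After thinning the CTRL shares were 28.6% (8.39 to 58.1) of 14 LHX1 cells and 18.5% (14.9 to 22.6) of the others, with overlapping intervals. In OTX2CRISPR HC2-like cells 8.47% (2.81 to 18.7) of 59 LHX1 cells had ISL1 against 22.8% (16.3 to 30.4). These intervals overlapped too, as did those after thinning, 6.06% (0.74 to 20.2) and 15.7% (10.6 to 22.0). Of the 21 double CTRL cells 76.2% (52.8 to 91.8) were called in S or G2/M. Their ONECUT2 level was 2563 CPM (2193 to 2977), above the 1476 CPM (1329 to 1635) of the cells with ISL1 alone. Their median depth was 3128 UMIs, against 2824.5 in HC2-like cells with either gene alone. Doublets were not removed, and their part was not tested.

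In the New-like cells of OTX2CRISPR ISL1 was at 26.6 CPM (22.1 to 31.7), from 123 UMIs in 60 cells. These 60 cells had CRABP1, a retinoic acid carrier, at 5215 CPM (4890 to 5556) against 1726 CPM in the other 1749, ONECUT3 at 1051 against 520 CPM and POU4F2 at 174 against 50.2 CPM. They had OTX2 at 250 CPM (183 to 334) against 1244 CPM (1212 to 1277) and OLIG2, a progenitor bHLH factor, at 305 against 1141 CPM. OTX2 was thus lower in the New-like cells with ISL1 than in those without. After thinning 1 of the 107 LHX1 and 40 ISL1 cells carried both. ISL1 was in 0.93% (0.02 to 5.10) of the LHX1 cells and 2.32% (1.66 to 3.16) of the others, with overlapping intervals. In restricted RPC-like cells ISL1 was at 5.14 and 6.66 CPM, and in CTRL cone-like cells at 4.63 CPM, and these UMIs sat in few cells, 10 of the CTRL cone-like cells with up to 11 UMIs in a cell.

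ISL2 was highest in PR2-like and dividing cones. In CTRL it was at 228 CPM (205 to 252) in PR2-like and 179 CPM (163 to 196) in dividing cones, and 18.4 CPM (12.9 to 25.3) in PR1-like cones. Cone-like cells were 263 of the 278 thinned CTRL cells with ISL2. After thinning 11.1% (9.83 to 12.4) of CTRL cone-like cells had it, against 0 of 151 RGC-like cells (up to 1.99%). In the 110 OTX2CRISPR cone-like cells 20 UMIs gave 85.6 CPM (52.3 to 132), a log2 ratio of -0.71 (-1.43 to -0.07), and within dividing cones -0.22 (-1.14 to 0.57). In postmitotic cones it was at 112 and 47.0 CPM, a ratio of -1.25 (-2.58 to -0.20), where 16.4% of genes were lower and 7.04% higher past 2-fold. Within cones the difference was thus much smaller than over the whole library, and it rested on few cells.

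The 591 CTRL cone-like cells with ISL2 had THRB, the thyroid hormone receptor of red cones, at 533 CPM (500 to 568) against 271 CPM (256 to 287) in the other 1811. RXRG, its retinoid partner receptor, was at 2009 against 1305 CPM and OPN1LW at 132 (116 to 150) against 66.4 CPM. These groups mix the cone classes. THRB and RXRG are naming markers of the PR2-like and dividing classes, where ISL2 was highest, and OPN1LW of the PR2-like class. The part of this mix in the gene differences was not tested. The OTX2 intervals overlapped, at 2859 CPM (2782 to 2939) and 2867 CPM (2818 to 2917). Of the cells with ISL2 58.0% (53.9 to 62.1) were called in S or G2/M, against 32.8% (30.6 to 35.0), and after thinning 53.6% (47.4 to 59.8) against 39.4% (37.3 to 41.5). Their median depth was 2948 against 2326 UMIs. ISL2 stood at 113 CPM (101 to 125) in G1, 155 in S and 173 CPM (157 to 191) in G2/M. The G1 cones join PR1-like cells, low in ISL2, with PR2-like cells, where ISL2 was above the dividing class, so these values mix classes.

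LHX4 was present in each cone class. In CTRL it was at 79.4 CPM (66.3 to 94.3) in PR2-like and 65.6 CPM (54.9 to 77.8) in PR1-like cones, with overlapping intervals, and 37.7 CPM (30.6 to 45.8) in dividing cones. It was at 71.5 CPM (62.5 to 81.5) in G1 cones and 39.4 CPM (31.6 to 48.4) in G2/M, phases that also mix the cone classes. No other class with at least 50 CTRL cells exceeded 3.52 CPM. Cone-like cells were 139 of 147 thinned CTRL cells with LHX4.

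LHX4 was found in the few OTX2CRISPR cones. Their level was 64.2 CPM (35.9 to 106; 15 UMIs) against 57.4 CPM (51.7 to 63.7; 360 UMIs) in CTRL, a log2 ratio of 0.16 (-0.69 to 0.90), and 8.26% of 109 thinned cells had it against 5.85%. New-like cells had 19 LHX4 UMIs, 4.11 CPM (2.47 to 6.41). LHX4-AS1, an antisense gene at the locus, was at 79.7 and 64.8 CPM over the libraries. In CTRL it lay between 59.0 and 103 CPM in all classes, so it did not share the cone pattern. The extremes in OTX2CRISPR were 35.5 CPM in dividing and 137 CPM in PR1-like cones, from only 3 and 10 UMIs. The strand setting of the counting is not given in the sources used here, and LHX4 values are uncertain to that extent.

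**Figure D5:**
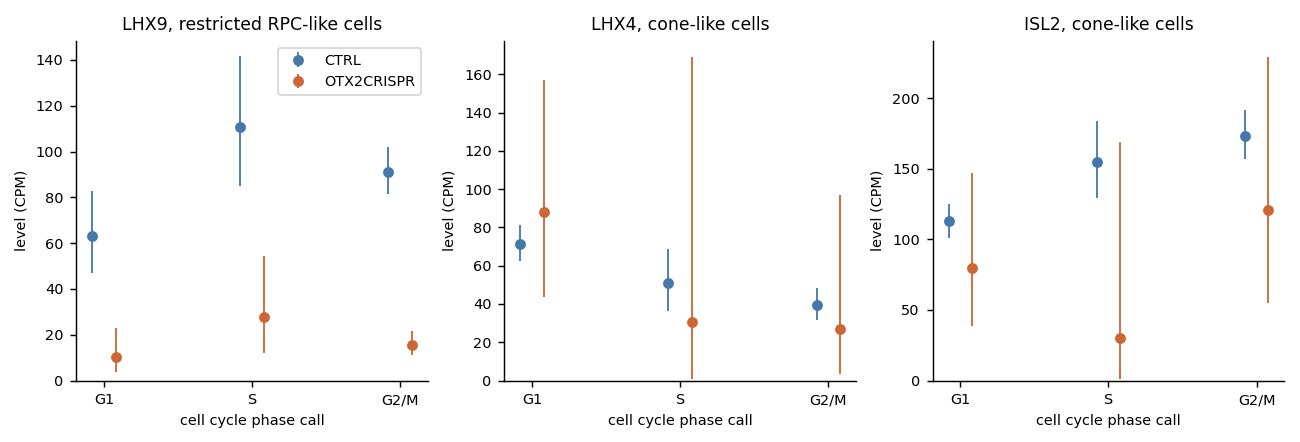
Level in CPM of LHX9 in restricted RPC-like cells and of LHX4 and ISL2 in cone-like cells, by cell cycle phase call, in CTRL (blue) and OTX2CRISPR (orange), with 95% Poisson intervals. In CTRL LHX4 was at 71.5 CPM in G1 and 39.4 CPM in G2/M, ISL2 at 113 and 173 CPM, and LHX9 at 63.0 and 91.1 CPM. The phases differ in their mix of cone classes and of restricted RPC-like clusters.

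LHX9 was highest in progenitors. In CTRL it was at 88.5 CPM (80.3 to 97.3; 430 UMIs) in restricted RPC-like and 73.0 CPM (58.2 to 90.5; 83 UMIs) in multipotent RPC-like cells, with overlapping intervals. In OTX2CRISPR it was at 15.7 CPM (11.8 to 20.7; 52 UMIs) and 66.9 CPM (51.7 to 85.1; 66 UMIs). The log2 ratio was -2.49 (-2.93 to -2.07) in restricted RPC-like cells, 5.62-fold lower, and -0.13 (-0.62 to 0.36) in multipotent cells. The intervals of these ratios did not overlap. LHX9 was thus lower in restricted progenitors and not measurably different in multipotent ones. After thinning 7.96% and 1.52% of restricted RPC-like cells had LHX9, beside 0 of 151 (up to 1.99%) and 0.39% of RGC-like cells.

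The lower level had the same direction in each restricted cluster. In the OTX2-rich cluster LHX9 went from 97.4 CPM (88.3 to 107) to 18.0 CPM (11.5 to 26.8), and in the NPY cluster from 26.2 CPM (15.0 to 42.6) to 14.2 CPM (9.46 to 20.6), where the intervals overlapped. In OTX2CRISPR it was at 14.7, 18.8 and 14.0 CPM in cells with 0, 1 to 4 and 5 or more OTX2 UMIs, and in CTRL at 75.9, 80.8 and 95.8 CPM. LHX9 was low in OTX2CRISPR also in cells with most OTX2 transcript, a count that does not show which alleles were cut. In CTRL LHX9 was at 63.0 CPM (47.1 to 82.6) in G1, 111 CPM in S and 91.1 CPM in G2/M. After thinning 86.1% of CTRL cells of the OTX2-rich cluster and 39.8% of the NPY cluster were called in S or G2/M. The phase values thus mix the clusters, and the part of this mix was not tested. The CTRL cells with LHX9 had OLIG2 at 1888 CPM (1810 to 1968), above the 1412 CPM (1374 to 1451) of the restricted RPC-like cells without, at median depths of 3406 and 3081.5 UMIs. OLIG2 is a naming marker of this class, and CTRL LHX9 was higher in the OTX2-rich cluster. The part of cluster mix and depth in the OLIG2 difference was not tested.

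LHX9 in CTRL cones was at 15.3 CPM (12.4 to 18.7), with 14.9 to 15.6 CPM in the 3 cone classes. In HC2-like cells it went from 17.8 CPM (22 UMIs) to 1.86 CPM (1 UMI), too few for a firm ratio. LHX5 was low throughout, and its highest level was in HC2-like cells, at 17.8 CPM (11.2 to 27.0; 22 UMIs) in CTRL and 28.0 CPM (15.7 to 46.1; 15 UMIs) in OTX2CRISPR, a log2 ratio of 0.65 (-0.40 to 1.66). In CTRL 15 of the 37 cells with LHX5 had ISL1 and 2 had LHX1, and in OTX2CRISPR 4 of 30 had ISL1 and 11 had LHX1. LHX3 was seen in 2 OTX2CRISPR restricted RPC-like cells, at 1 UMI each, which cannot be told from background.

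Other pairs of members were also counted over all CTRL cells without thinning. ISL2 was in 96 of 328 cells with LHX4, 29.3% (24.4 to 34.5) against 11.4% of cells without. By contrast ISL1 and ISL2 were together in 3 of the 236 cells with ISL1, 1.27% (0.26 to 3.67) against 13.1%. LHX4 and LHX9 were together in 15 of the 328 LHX4 cells, 4.57% (2.58 to 7.43) against 10.8%. These counts join classes that differ in their members. LHX4 and ISL2 lay mostly in cone-like cells, ISL1 in RGC-like and HC2-like cells, and LHX9 was highest in progenitors. The part of class make-up in the pairs was not tested.

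Among other LIM homeodomain genes (LHX2, LHX6, LHX8, LMX1A and LMX1B) LHX2 alone was measured, at 35.1 and 39.8 CPM, and 0 of 1 passed 2-fold over the whole library. Within cone-like cells LHX2 had 170 UMIs in CTRL and 2 in OTX2CRISPR, 27.1 and 8.56 CPM, a log2 ratio of -1.66 past 2-fold lower with an interval (-4.72 to 0.21) that holds 0. Of 10 LIM partners 1 was higher and 0 lower in OTX2CRISPR, with a median log2 ratio of 0.20, where 8.71% of all genes were higher and 5.67% lower. The gene past 2-fold was LMO1, an LDB1 competitor, from 2.44 CPM (36 UMIs) to 8.18 CPM (108 UMIs), 1.75 (1.19 to 2.33). LDB1 itself was at 5.41 and 8.93 CPM, 0.72 (0.30 to 1.15), and LMO4 at 96.3 and 71.8 CPM, -0.42 (-0.54 to -0.30). These cofactors were thus detected in both libraries.

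Some of the horizontal cell genes, but not all, had a higher level in OTX2CRISPR over the whole library. Of 9 measured genes of 11, 5 were higher and 0 lower past 2-fold, with a median of 1.30, beside 8.71% and 5.67% of all genes. They were ONECUT3 (2.92), ONECUT1 (1.44), PROX1 (1.42), ONECUT2 (1.40) and GAD1 (1.30), which makes the transmitter GABA. Unlike LHX1, several of them had many UMIs in New-like cells. The 1575 OTX2CRISPR New-like cells without LHX1 held 2228 ONECUT3, 1735 ONECUT1 and 680 PROX1 UMIs. The 444 OTX2CRISPR HC1-like cells with LHX1 held 1460, 1756 and 536. Within HC1-like cells 0 of 9 passed 2-fold, beside 7.38% of genes higher and 2.73% lower. In HC2-like cells 1 of 9 was higher, beside 4.32% of genes. In other classes more were higher, 5 of 6 in RGC-like cells beside 5.67% of genes and 4 of 7 in restricted RPC-like cells beside 5.41%. In multipotent RPC-like cells 3 of 5 were higher, beside 1.47% of genes. In AC/HC/RGC-like cells 4 of 5 were higher and 1 lower, beside 13.6% and 3.35% of genes. In cone-like cells 1 of 7 was higher and 2 were lower, beside 5.93% and 13.9% of genes. Among the 5 ganglion cell genes 4 were higher, POU4F2 (3.41), GAP43 (2.11), POU4F3 (2.10) and POU4F1 (1.29), and ATOH7, needed for ganglion cell formation, was at 0.52. Of all genes 8.71% were higher. Within RGC-like cells 1 of 4 was higher, with a median of 0.03, beside 5.67% of genes.

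The genes whose level over the 20 profiles of class and library was most like that of each member were found by Pearson correlation of log2(CPM + 10) among 8841 genes. The profiles share libraries and class definitions, so r is a description. For LHX1 they were LOC112530064 (r = 0.98), OXT, the oxytocin family gene (0.91), the repressor ZEB2 (0.90) and ZNF703 (0.90). These rest in part on the HC1-like profiles, and without those r was 0.93, 0.59, 0.64 and 0.62. For ISL1 they were STMN3, a stathmin (0.92), FGF18 (0.90), CLASP1 (0.89), SMTNL1 (0.89) and the sodium-calcium exchanger SLC8A1 (0.88).

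For ISL2 they were PPP2R2B, a phosphatase subunit (0.97), SAMD10 (0.96), THRB (0.94) and TECPR2 (0.92). For LHX4 they were the photoreceptor genes SAMD7 (0.97), IMPG2 (0.96) and NR2E3 (0.95), with LOC107050328 (0.95) and RAPGEF5 (0.94), and without the highest pair of profiles r stayed between 0.93 and 0.97. LHX9 had the weakest likeness, GRB10 (0.84), ARID5B (0.83), CGNL1 (0.82), C1orf53 (0.81) and SOX8 (0.81). Among the members LHX4 and ISL2 were most alike (0.82), and LHX1 and ISL1 were at 0.16. With OTX2 the profile of LHX4 had r = 0.84, of ISL2 0.72 and of ISL1 -0.63.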

How the data were processed

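The authors aligned 10X Chromium reads to GRCg6a with Cell Ranger (version 3.0.2 in the matrix headers) and deposited UMI counts per gene and barcode, without normalization. How many retinas each library pooled is not given consistently. The CTRL counts held 5128 barcodes and 15177210 UMIs, the OTX2CRISPR counts 4953 and 13366081. Barcodes were kept, after the study's code, if they had between 200 and 2500 detected genes and if genes related to mitochondria and ribosomal genes gave no more than 0.4% and 50% of their counts. They were clustered in Seurat 5.3.0 (R 4.3.3) on 33 principal components at resolution 0.6, with UMI number, those shares and cell cycle scores regressed out. Of 670 variable genes (mean 0.1 to 8, dispersion of at least 1) 611 were used, without the LIM homeobox genes, partners and markers. The resulting 11 clusters were all named, with at least 3 raised markers. Markers include genes that the study named from these cells.

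Levels are summed UMIs as CPM. Intervals are exact 95% intervals, Poisson for levels, Clopper-Pearson for shares and conditional binomial for ratios, computed in Python 3.11.15 with scipy 1.17.1, and cover counting error only. A count of 0 allows up to 3 counts. Ratios were computed for genes with at least 20 UMIs, and shares and phase calls after each cell was thinned to 1000 UMIs. Thinning dropped the shallowest cells, 57 in CTRL and 92 in OTX2CRISPR. Groups of cells set by a UMI of a LIM homeobox gene, and their phase calls, were not thinned unless stated. No doublets were removed and no caller was run. The genes named are the 7 members, OTX2, fixed lists of other LIM genes, LIM partners, horizontal and ganglion cell genes, class markers, and the 5 genes most like each member with at least 200 UMIs. DLX2, OLIG2, NEUROG2 and the other markers are class markers, of the LIM lists those past 2-fold get values, and LHX2, LDB1, LMO4, LHX4-AS1 and NPY were added after their values were seen. A few genes that this rule names are not reported here. Members and lists were chosen with earlier results of these data known. On simulated Poisson counts for the whole libraries (12937 genes, 200 changed by known folds), 95.9% of intervals held the true ratio and 100% of changed genes had the right direction. The simulated counts follow the model behind the intervals, so this checks the computation only. It does not cover UMIs that are concentrated in few cells. The alternatives were all deposited barcodes, other scalings, thinning, thresholds, clusterings and gates on marker UMIs.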

Additional observations from a re-analysis of the deposited data

How the results depend on the processing

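With 1 library per condition, no replicate could be left out. No paired analysis was possible because the labels give 1 library per condition. Of 250 alternative values for 56 results, 208 moved by less than the 95% interval and 42 by more. A change of sign was looked for only in log2 ratios past 2-fold, where 0 changed sign. Levels, shares and smaller ratios could not be counted as changed in sign. The alternative that leaves out the 10% of cells of most UMIs was chosen after seeing the data. At resolution 0.4 the horizontal-like classes merged, and the gates have no multipotent class, so those results have no value there. The cause of a shift was not tested. With equal weight per cell the LHX1 log2 ratio between the libraries was 2.19, and without the deepest cells that of ISL1 was 0.21. The log2 ratio of LHX1 shares was 1.85 with thinning to 2000 UMIs and 1.88 without thinning. With 2 UMIs required, the share ratios were -5.66 for LHX4, -3.39 for LHX9 and -5.31 for ISL2. In OTX2CRISPR, ISL1 in RGC-like cells was at 539 CPM with LIM genes and markers kept in the clustering, and 364 CPM in cells gated on POU4F3. In gated cells the ISL1 ratio was -0.99, LHX9 in restricted RPC-like cells 23.3 CPM with a ratio of -2.0, and LHX1 in New-like cells 43.3 CPM. New-like LHX1 was at 55.9 CPM at resolution 1.0 and 58.3 CPM with 20 components, and LHX1 in restricted RPC-like cells at 53.1 and 51.3 CPM. In CTRL, ISL1 was in 11.2% of LHX1 cells without thinning, and in cells without LHX1 in 4.78% with thinning to 2000 UMIs, 4.33% without thinning, 3.62% with 2 UMIs and 18.0% among horizontal-like cells. In OTX2CRISPR, ISL1 was in 2.86% of LHX1 cells with thinning to 2000 UMIs, and in cells without LHX1 in 8.77% with thinning to 2000 UMIs, 8.69% without thinning, 9.29% among horizontal-like cells and 4.25% without the deepest cells. Among horizontal-like cells, gated cells and unthinned cells gave LHX1 in 19.9% and 23.1% of CTRL and 62.4% and 69.1% of OTX2CRISPR, and ISL1 in 20.8% and 21.1% of CTRL and 6.99% and 7.28% of OTX2CRISPR. With 2 UMIs required, horizontal-like cells were 79.8% of LHX1 cells in CTRL and 82.0% in OTX2CRISPR (45.4% by gates), cone-like cells 18.3% and 0%, and RGC-like cells 71.8% of OTX2CRISPR ISL1 cells (49.1% by gates). Depth limits LHX3, LHX5 and all OTX2CRISPR cone values.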
